A study of Mus musculus with 60 samples.

Results

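The Rab GTPases are the largest branch of the Ras superfamily and act as switches on intracellular membranes. The deposited arrays carried probes for 59 Rab genes, taken as every probe whose annotated symbol is Rab followed by a number and at most 1 letter, out of 19057 genes with a probe (112 of 45281 probes). A gene was kept in a table when its probe was detected, at a detection p-value below 0.01, on at least 3 arrays of that table. This kept 41 Rab genes in the first macrophage experiment, 43 in the second and 41 in the injured artery. In all, 45 Rab genes were kept in at least 1 experiment and 38 in each of the 3. The other 14 (Rab2b, Rab3b, Rab3c, Rab9b, Rab17, Rab23, Rab25, Rab26, Rab27b, Rab30, Rab36, Rab37, Rab38 and Rab40b) were kept in none and have no values here. Rab20 and Rab33a passed in the second macrophage experiment only, and Rab44 in the artery only.

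Each Rab protein marks a particular compartment, where its GTP-bound form recruits effectors that move, tether or fuse vesicles. Exchange factors (GEFs) load GTP, GTPase-activating proteins (GAPs, mostly of the TBC family) end the active state, and GDP dissociation inhibitors return the prenylated protein to the cytosol. In macrophages this machinery carries Toll-like receptors (TLRs) to endosomes and back, matures phagosomes and releases cytokines.

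All macrophages were bone marrow-derived macrophages, grown for 6 days with M-CSF at 40 ng/ml, and all samples carry the strain label C57BL/6. Treated cells received high-density lipoprotein (HDL) at 2 mg/ml for 6 h, then CpG DNA, a TLR9 ligand, at 100 nM or P3C, a TLR2 ligand, at 50 ng/ml for 4 h, or either step alone. The first experiment held wild-type cells in 4 groups (HDL with CpG, CpG, HDL, control). The second held cells labelled Atf3-deficient and wild-type cells, each in 6 groups (the same 4, P3C, and HDL with P3C). The artery experiment held carotid arteries of male mice aged about 12 weeks, labelled Atf3-deficient or wild-type, that were denuded electrically, with HDL at 20 mg/kg or PBS injected 3 h later and a labelled period of 12 h. The wild-type marrow came from mice of 6 to 8 weeks, and the labels do not describe the source of the Atf3-deficient marrow or whether arrays came from separate mice or cultures. Every group had 3 arrays, so the p-values measure the spread between arrays, which may be technical.

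The genotype label was checked first. In the second macrophage experiment the Atf3 probe read 11.65 to 13.38 on the arrays labelled Atf3-deficient and 10.61 to 12.20 on the wild-type arrays, which goes against the label, and the position of the probe within the gene was not known. Erdr1 did separate the labels, at 4.31 to 4.98 in the labelled Atf3-deficient arrays and 10.83 to 12.04 in the wild-type arrays. It is another gene whose relation to Atf3 was not tested, so this separation does not show whether Atf3 was lost. In the artery the Erdr1 signal of 1 array labelled Atf3-deficient with HDL (10.33) and 1 wild-type PBS array (4.48) was that of the other label. The groups are therefore called by their labels throughout. Between 26.4% and 33.8% of probes were detected on the macrophage arrays and between 20.5% and 34% on the artery arrays, and the number of arrays limits the precision. The first wild-type CpG array of the second experiment had the fewest detected probes of the macrophage arrays (11951). Its correlation with the third (0.9549) was the lowest within a group of that experiment. On it Rab10 (10.93), Rab12 (7.69), Rab34 (6.35) and Rab3d (9.56) stood apart from the other arrays of its group. It enters every comparison of wild-type CpG cells there. Of 8 macrophage markers 7 had a probe and were detected in all 3 experiments. Lymphocyte markers were undetected in the macrophages, as were the neutrophil genes Ly6g, Mpo, Elane and Ngp and the endothelial genes Cdh5, Kdr, Tie1 and Tek. Of 6 smooth muscle and 5 fibroblast markers, 3 and 4 were detected in the first experiment and 2 and 3 in the second. Acta2 read 11.59 to 12.79 and Dcn 9.18 to 10.15 in the first, and 8.12 to 10.74 and 6.48 to 9.62 in the second. The part of these markers in the Rab results was not tested.

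Stimulation through TLR9 or TLR2 changed about as large a share of Rab genes as of all genes, and most of the Rab genes that passed fell. Of the 40 Rab genes kept in both macrophage experiments, 12 (30%) passed an adjusted p of 0.05 in all 5 comparisons of a ligand with control, as did 26.6% of the 8626 genes tested in both (9.88% higher each time and 16.7% lower). Of these, 11 fell each time (Rab3a, Rab4a, Rab6b, Rab7b, Rab8b, Rab19, Rab27a, Rab28, Rab29, Rab39 and Rab40c) and Rab35 rose each time. Rab19 was kept in the first experiment through its 3 control arrays alone, so that its fall there was fixed by the filter and 10 genes fell each time without it. Rab3a and Rab27a were kept there through control and HDL arrays alone. In the second experiment Rab19 was detected on 12 arrays and Rab3a on 11, none of them with a ligand alone. The filter thus favoured these falls as well, and their p-values are no independent support for them. No Rab gene passed in opposite directions in different ligand comparisons, and 0.696% of all genes did. With CpG in the first experiment 4 Rab genes rose and 11 fell of 41, or 36.6%, where 34.1% of all 8946 genes tested passed (12.8% higher and 21.3% lower). With CpG in the second experiment 8 rose and 15 fell of 43 in wild-type cells, where 51% of all 9213 genes passed (22.1% higher and 28.9% lower). In labelled Atf3-deficient cells 11 rose and 15 fell, where 51.7% of all genes passed (20.6% higher and 31% lower). With P3C 7 rose and 14 fell in wild-type cells (49.9% of all genes passed, 21.5% higher and 28.3% lower), and 9 rose and 15 fell in labelled Atf3-deficient cells (49.6%, with 21.5% higher and 28.1% lower). Their median log2 difference was close to that of all genes as well, at -0.12 against -0.07 for CpG in second-experiment wild-type cells and at -0.04 against -0.07 for P3C. The CpG and P3C comparisons of a genotype share their control arrays. Under median scaling of the arrays the calls that remained were nearly all falls, 0 higher and 13 lower for CpG in the first experiment, 3 and 12 for CpG and 0 and 13 for P3C in wild-type cells, and 2 and 11 for CpG and 0 and 12 for P3C in labelled Atf3-deficient cells. That scaling put the median of all genes at -0.13 to -0.24 in these comparisons.

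The first and second CpG experiments on wild-type cells share no array. All but 1 of the 15 Rab genes that passed in the first (93.3%) also passed in the second, making up 60.9% of its 23, and all 14 shared genes moved in the same direction. Over all genes tested in both experiments the shares were 86.7% and 57.4%, and 99.9% of the shared genes moved in the same direction, so the overlap of Rab genes was near that of all genes. The exception was Rab18, a Rab of the endoplasmic reticulum and lipid droplets. Arrays lay on chips of 6, and with chip as a term in the model 21 Rab genes passed with CpG in the first experiment, 21 in wild-type and 23 in labelled Atf3-deficient cells of the second, and 22 in each P3C comparison. Leaving out the third CpG array of the first experiment brought its count to 9. No Rab gene passed in a direct comparison of CpG with P3C in wild-type cells by limma, where 0.771% of all genes did and 4 Rab genes had an unadjusted p below 0.05.

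**Figure D1:**
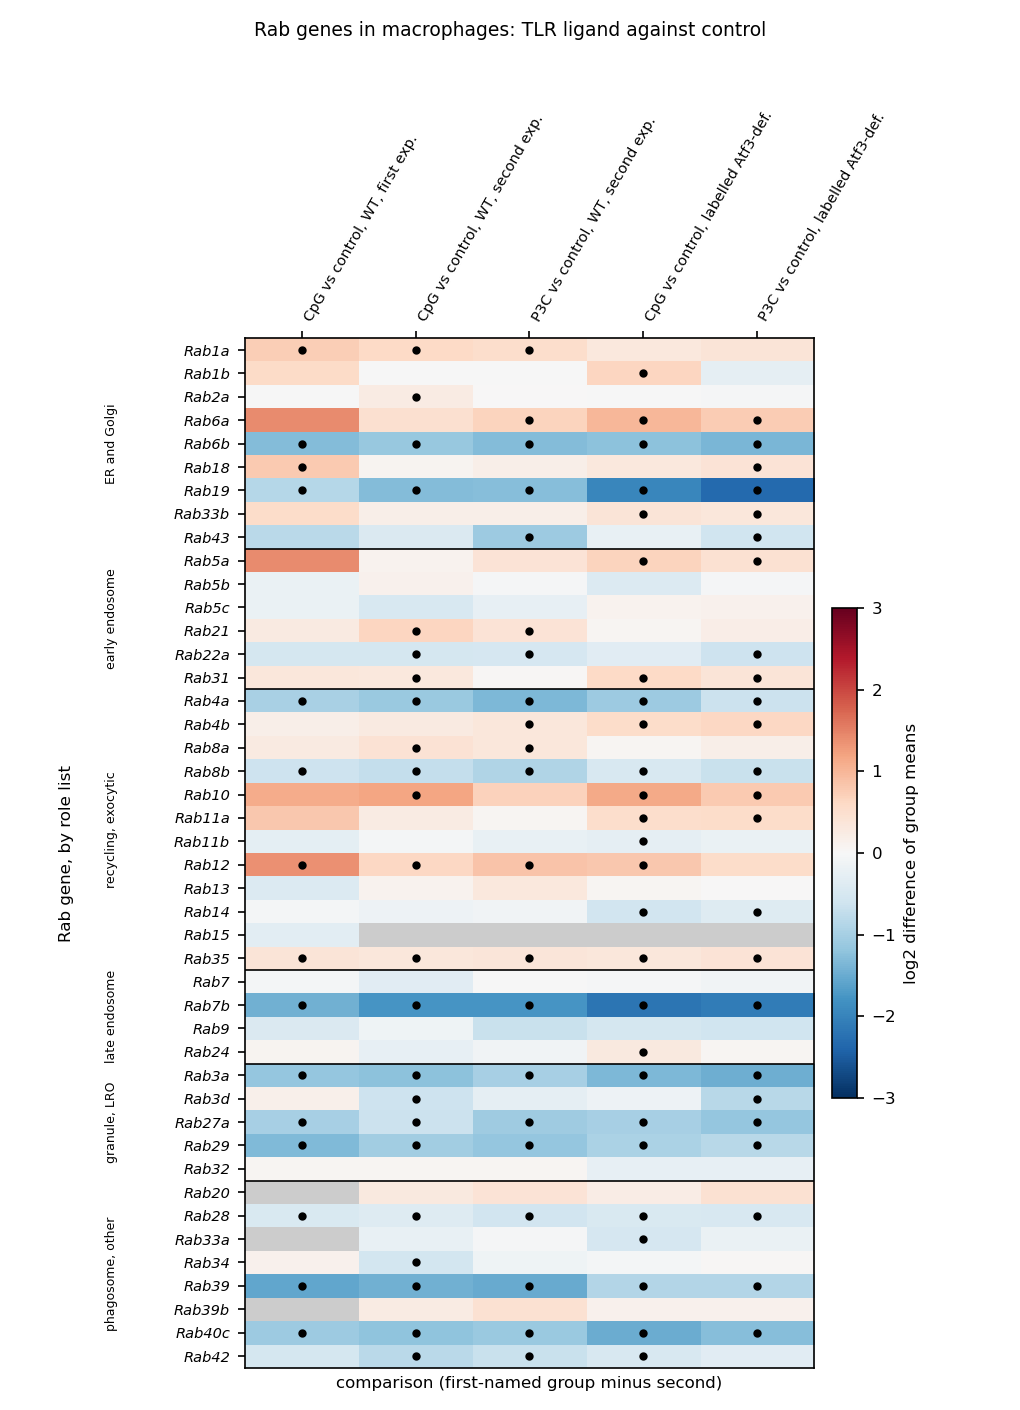
Log2 difference of group means (colour, first-named group minus second) for the Rab genes kept in the macrophage tables, in rows by role list, in 5 comparisons of a TLR ligand with control. Black dots mark an adjusted p below 0.05 and grey cells genes not kept in that experiment. Rab7b, Rab19, Rab39, Rab40c, Rab3a, Rab27a, Rab29, Rab28, Rab4a, Rab6b and Rab8b are blue with a dot in all 5 columns, and Rab35 is red with a dot in all 5. Where the ligand group was not detected the colour shows measured means and not a fold. The detection filter fixed the dot of Rab19 in the first experiment and favoured its other dots, those of Rab3a, and that of Rab27a in the first experiment.

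Among the Rabs of late endosomes and lysosomes, Rab7b fell furthest, while its relative Rab7 did not pass in any ligand comparison (-0.33 to -0.01 for the probe used). The other 2 detected Rab7 probes did not pass either, and differed by 1.0 and 1.70 with CpG in the first experiment and by -0.76 to 0.56 in the second. Rab7b moves between endosomes and the trans-Golgi network and is known in mouse macrophages for sending TLR4 and TLR9 to lysosomes. With CpG in the first experiment the log2 signal of Rab7b was 9.15, 9.16 and 9.47, against 10.59, 10.48 and 11.01 in control cells. Wild-type cells of the second experiment had 9.97, 9.86 and 9.43 with CpG and 9.91, 9.67 and 9.66 with P3C, against 11.57, 11.51 and 11.46 in control cells. The labelled Atf3-deficient cells had 8.94, 9.76 and 9.44 with CpG and 9.36, 9.46 and 9.59 with P3C, against 11.62, 11.75 and 11.34 in control cells. Every ligand array was below every control array. The log2 differences were -1.43 ± 0.19 (SE, adjusted p = 0.000141) for the first CpG comparison, -1.76 ± 0.18 (1.28e-09) for CpG and -1.77 ± 0.18 (1.27e-09) for P3C in wild-type cells. In labelled Atf3-deficient cells they were -2.19 ± 0.18 (1.26e-11) for CpG and -2.10 ± 0.18 (3.66e-11) for P3C. The other detected Rab7b probe passed as well, at -1.63 in the first experiment and at -1.71 and -1.58 for CpG and P3C in wild-type cells of the second. Within single chips the CpG difference was -1.38 and -1.53 in the first experiment and -1.60 in the second.

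The list of secretory granule and lysosome-related organelle Rabs had 5 members tested, and 3 or 4 of them fell in each ligand comparison while none rose. Among all genes 12.8% to 22.1% rose and 21.3% to 31% fell in these comparisons. No difference of a role list from all genes was tested, here or below. Rab27a, which docks lysosome-related granules and exosome-bearing endosomes, fell in all 5. In the first experiment it read 4.50, 4.67 and 4.38 with CpG, where no array detected it, against 5.55, 5.82 and 5.16 in control cells, at least 1.55-fold lower. Rab3a, a Rab of regulated exocytosis, was likewise undetected with either ligand in both genotypes and in the first experiment. The detection filter thus favoured the fall of Rab27a in the first experiment and those of Rab3a in both. Rab3a was at least 1.68-fold lower with CpG and at least 1.77-fold lower with P3C in wild-type cells. No p-values are given for these falls because the filter favoured them. Here and below, a bound sets the detected group's mean against the lowest detected signal of each array in the other group, or the gene's own signal where that is higher.

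Rab29, which works with the kinase LRRK2 at the trans-Golgi network and lysosome, read 8.82, 8.82 and 9.12 with CpG and 8.63, 8.78 and 9.07 with P3C in wild-type cells, against 9.96, 9.99 and 9.97 in control cells. The groups did not overlap, and the differences were -1.05 ± 0.15 (adjusted p = 5.39e-07) and -1.15 ± 0.15 (1.28e-07). The first experiment gave -1.32 ± 0.18 (adjusted p = 0.000128), and labelled Atf3-deficient cells -0.96 ± 0.15 and -0.84 ± 0.15. Rab29 and Rab7b lie close together on chromosome 1, with 3 protein-coding genes between them in RefSeq. Rab32, a relative of Rab29 on lysosome-related organelles, did not pass in any ligand comparison (-0.25 to 0.07).

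Of the phagosome and other Rabs, 5 were tested in the first experiment and 8 in the second, and 3 to 5 fell in each ligand comparison while none rose. Over these comparisons 12.8% to 22.1% of all genes rose and 21.3% to 31% fell. The counts include Rab42, lower in 3 comparisons but detected on only 8 arrays of the second experiment. The filter may have favoured its falls, and their p-values are no independent support. With CpG in labelled Atf3-deficient cells they also include Rab33a, undetected in both groups. Rab39, a Rab of phagosomes and the Golgi that binds caspase-1 in human monocytic cells, read 5.27, 4.98 and 5.17 with CpG in the first experiment, against 6.53, 7.01 and 6.56 in control cells. Wild-type arrays of the second experiment read 6.18, 5.64 and 5.70 with CpG and 5.88, 5.64 and 5.80 with P3C, against 7.34, 7.05 and 7.47 in control cells. All ligand arrays were below all control arrays. The differences were -1.56 ± 0.16 (adjusted p = 1.29e-05), -1.45 ± 0.18 (7.38e-08) and -1.51 ± 0.18 (3.32e-08). Cells labelled Atf3-deficient gave -0.89 ± 0.18 (adjusted p = 0.000129) with CpG and -0.88 ± 0.18 (0.000154) with P3C.

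Rab40c, which has a SOCS box and joins a ubiquitin ligase, fell by 1.10 in the first experiment, by 1.20 and 1.12 with CpG and P3C in wild-type cells, and by 1.49 and 1.27 in labelled Atf3-deficient cells. Its wild-type arrays of the second experiment read 9.37 to 9.63 with either ligand and 10.53 to 10.86 in control cells. Rab28, named because it is one of the 11 although outside the naming rule, fell by 0.38 to 0.57. Another detected Rab28 probe differed by 0.52, in the opposite direction, in the first CpG comparison without passing (adjusted p = 0.068). With P3C in each genotype a Rab28 probe other than the one used also did not share the fall, without passing.

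The promoters of 4 of the 11 Rab genes that passed as lower in every ligand comparison are shown. Rab19 is 1 of the 4, and its fall was fixed by the filter in the first experiment and favoured by it in the second. Each runs from 250 bases before to 50 after the start of the gene in RefSeq's annotation of mouse build GRCm38.p6, and of the kept Rab genes 40 had such a window. These 40 had 51 windows, so the percentages below are of windows, while the Rab counts are of genes with a match in any window. Searched on both strands, TGANTCA (the AP-1 motif) was in 7.81% of all 32851 windows and in those of 3 Rab genes (Rab15, Rab34 and Rab39b). The NF-kB consensus was in 8.46% of all windows and in those of Rab11a, Rab15 and Rab28, GAAA followed by any 2 bases and GAAA (found in interferon-responsive promoters) in 3.44% and in that of Rab19, TGACGTCA (the CRE) in 1.79% and in that of Rab5a, and TCACGTGA (an E-box) in 0.974% and in those of Rab5a, Rab21 and Rab24. In Rab19 (chr6:39381103-39381402, plus strand) the capitals mark the GAAA motif at a pair of overlapping places on the reverse strand, from 10 and 4 bases before the start, and in Rab28 (chr5:41708130-41708429, minus strand) they mark the NF-kB consensus from 10 bases before the start. None of the 5 motifs holds another, and none was found in Rab29 (chr1:131867027-131867326, plus strand) or Rab39 (chr9:53706183-53706482, minus strand). A match describes the letters only.
Rab19: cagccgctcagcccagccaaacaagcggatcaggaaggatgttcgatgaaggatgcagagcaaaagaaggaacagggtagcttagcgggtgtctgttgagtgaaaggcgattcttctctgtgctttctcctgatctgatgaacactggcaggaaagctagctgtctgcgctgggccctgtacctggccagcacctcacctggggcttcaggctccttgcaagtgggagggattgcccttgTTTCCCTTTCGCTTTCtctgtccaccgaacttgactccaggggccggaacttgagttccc
Rab28: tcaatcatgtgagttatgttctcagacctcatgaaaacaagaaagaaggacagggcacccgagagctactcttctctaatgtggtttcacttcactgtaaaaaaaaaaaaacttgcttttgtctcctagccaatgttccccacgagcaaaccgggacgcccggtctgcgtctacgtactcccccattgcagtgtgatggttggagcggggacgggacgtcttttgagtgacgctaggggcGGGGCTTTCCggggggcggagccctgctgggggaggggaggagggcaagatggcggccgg
Rab29: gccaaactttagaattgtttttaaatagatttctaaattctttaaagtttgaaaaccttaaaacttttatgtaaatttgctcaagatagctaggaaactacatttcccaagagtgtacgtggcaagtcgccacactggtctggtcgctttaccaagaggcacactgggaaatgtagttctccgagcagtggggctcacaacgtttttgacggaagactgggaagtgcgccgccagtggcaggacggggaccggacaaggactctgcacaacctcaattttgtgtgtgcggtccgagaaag
Rab39: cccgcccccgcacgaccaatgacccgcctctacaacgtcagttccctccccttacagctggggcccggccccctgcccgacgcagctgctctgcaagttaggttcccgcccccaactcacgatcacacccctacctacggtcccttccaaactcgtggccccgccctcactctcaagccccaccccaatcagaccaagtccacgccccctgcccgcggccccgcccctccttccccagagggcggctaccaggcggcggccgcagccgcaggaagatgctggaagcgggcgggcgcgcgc

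Of 9 Rabs of the endoplasmic reticulum and Golgi, 2 or 3 rose and 2 or 3 fell in each ligand comparison. Among all genes 12.8% to 22.1% rose and 21.3% to 31% fell. Rab19, a Golgi-associated Rab, fell in the 4 comparisons of the second experiment. It was detected on all control arrays of both experiments and on none with CpG or P3C, so the filter favoured these falls and no p-values are given for them. Cells labelled Atf3-deficient read 4.85, 4.60 and 4.97 with CpG and 4.39, 4.38 and 4.52 with P3C, against 6.76, 6.54 and 6.99 in control cells, at least 2.47-fold and at least 2.40-fold lower. In wild-type cells it read 4.51, 4.48 and 4.37 with CpG and 4.37, 4.45 and 4.59 with P3C, against 5.95, 5.49 and 5.81 in control cells, at least 1.25-fold and at least 1.31-fold lower. Its promoter is the one with the paired GAAA motif. Rab6b, a form of the Golgi Rab6 best known from brain, fell by 1.31 in the first experiment, with 5.32, 5.34 and 4.60 with CpG against 6.37, 7.15 and 5.66 in control cells, and by 1.13 and 1.31 with CpG and P3C in wild-type cells of the second.

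Its relative Rab6a, the common Golgi form, went the other way where it passed. In labelled Atf3-deficient cells Rab6a read 8.86, 8.24 and 8.40 with CpG, against 7.59, 7.37 and 7.56 in control cells, a rise of 0.99 ± 0.22 (adjusted p = 0.000372). With P3C it rose by 0.76 ± 0.22 in these cells and by 0.66 ± 0.22 in wild-type cells, and neither held with chip in the model (adjusted p = 0.0534 and 0.0572). In the other CpG comparisons its differences of 1.41 and 0.48 did not pass, and 1 control array of the first experiment read 4.64 beside 7.39 and 7.25. Other detected Rab6a probes did pass there, at 0.76 (adjusted p = 0.0037) in the first experiment and at 1.21 (1.65e-06) and 1.09 (7.22e-06) with CpG in second-experiment wild-type cells.

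Recycling and exocytic Rabs moved in both directions, with 2 to 5 rising and 2 to 4 falling of 12 tested in the first experiment and 11 in the second. Among all genes 12.8% to 22.1% rose and 21.3% to 31% fell. Rab4a, which drives fast recycling from early endosomes, read 7.17, 7.12 and 7.27 with CpG and 7.14, 7.05 and 6.66 with P3C in wild-type cells, against 8.32, 8.30 and 8.28 in control cells. These groups were far apart, and Rab4a fell by 1.12 ± 0.18 (adjusted p = 5.25e-06) and by 1.35 ± 0.18 (2.37e-07). Its fall in the first experiment (-0.97 ± 0.26, adjusted p = 0.013) was lost without the third CpG array (0.0518). Rab4b, its close relative, differed by 0.17 to 0.62 in the opposite direction and rose in 3 of the 5 comparisons. Rab8b, which carries vesicles to the plasma membrane, fell by 0.49 to 0.90, losing the call of the first experiment without the first control or the third CpG array, whereas its relative Rab8a rose by 0.43 ± 0.11 (adjusted p = 0.00196) with CpG and by 0.34 ± 0.11 (0.0114) with P3C in wild-type cells. In wild-type cells Rab8b read 12.26, 12.42 and 12.41 with CpG and 12.12, 12.25 and 12.18 with P3C, against 13.08, 13.02 and 13.16 in control cells.

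Rab10, which is known to bring TLR4 to the macrophage surface, read 10.93, 9.69 and 9.27 with CpG in wild-type cells, against 8.66, 8.56 and 9.11 in control cells. The groups did not overlap, and the rise of 1.19 ± 0.32 (adjusted p = 0.00293) was lost without the first CpG array. Rab10 also rose by 1.14 ± 0.32 with CpG (adjusted p = 0.00404) and by 0.79 ± 0.32 with P3C (0.0439) in labelled Atf3-deficient cells. Rab12, which sends recycling receptors to lysosomes, rose in 4 of the 5 comparisons, by 0.63 to 1.37. The value of 1.37, from the first experiment, was 0.79 without the second control array, which lost the call (adjusted p = 0.0644), as did leaving out the second or the third CpG array (0.0598 and 0.0898). Its wild-type CpG arrays of the second experiment read 7.69, 9.29 and 9.13, against 7.83, 8.16 and 8.24 in control cells. They overlapped the control arrays, the difference on the 1 shared chip was -0.14, and the call was lost with chip in the model (adjusted p = 0.0708). Rab35, a Rab of endosomal recycling named after its values were seen, rose by only 0.33 to 0.41. It read 11.47, 11.66 and 11.50 with CpG and 11.53, 11.51 and 11.61 with P3C in wild-type cells, against 11.26, 11.17 and 11.14 in control cells, with no overlap.

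Of 6 Rabs of early endosomes, 0 to 2 rose and at most 1 fell in a ligand comparison, where 12.8% to 22.1% of all genes rose and 21.3% to 31% fell. Rab5b and Rab5c, which with Rab5a drive the fusion of early endosomes, did not pass in any comparison of treatments in macrophages. The same held for Rab7 of late endosomes and Rab13 of recycling endosomes, the only other members with no such call among the 40. Rab5a rose in labelled Atf3-deficient cells, by 0.67 ± 0.18 with CpG (adjusted p = 0.00239) and by 0.45 ± 0.18 with P3C (0.0388), but both were lost with chip in the model (0.0944 and 0.78). Another detected Rab5a probe did not share this direction in either comparison and did not pass.

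The neutrophil genes that were detected, S100a8, S100a9 and Camp, moved with the ligands. Their summed linear signal was 407 to 662 with CpG against 131 to 395 in control cells of the first experiment, and 379 to 452 with CpG and 324 to 446 with P3C against 148 to 195 in wild-type control cells of the second. The labelled Atf3-deficient cells had 257 to 462 with CpG and 176 to 230 with P3C against 69.5 to 80.9. The 2 endothelial markers that were detected, Pecam1 and Vwf, moved the other way. Their summed signal was 48.1 to 68.1 with CpG against 76.1 to 107 in the first experiment, 143 to 148 with CpG and 125 to 140 with P3C against 272 to 306 in wild-type cells, and 77.7 to 118 and 98.2 to 132 against 136 to 174 in labelled Atf3-deficient cells. The part of these markers in the Rab results was not tested.

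Genes of the Rab cycle were counted with CpG in second-experiment wild-type cells, where 51% of all genes passed (22.1% higher and 28.9% lower). Of 28 GEFs 8 rose and 7 fell, of 25 GAPs 6 rose and 8 fell, of 33 effectors 8 rose and 12 fell, and of 6 genes of the GDP dissociation and prenylation machinery 1 rose and 2 fell. The median log2 difference of these lists was -0.03, -0.20, -0.17 and -0.41, beside -0.07 for all genes, and no difference of a list from all genes was tested. Tbc1d2, a GAP for Rab7, fell by 2.54 ± 0.21 (adjusted p = 1.09e-11) with differences from -2.61 to -2.05 over the 5 ligand comparisons. Appl1, an effector of Rab5 on early endosomes, rose by 2.25 ± 0.12 (7.1e-16), and by 1.71 to 2.36 over the 5. Among the other effectors Micall2 rose by 1.79 ± 0.22, and the motor Myo5a and the Rab11 effector Rab11fip5 fell by 1.66 ± 0.16 and 1.58 ± 0.13. Among GEFs Ric1, which activates Rab6 with Rgp1, and Rin3, a Rab5 family GEF, each rose by 1.59, Denn2b rose by 1.18, and Rab3il1 fell by 1.55. Tbc1d17 fell by 1.21 and Tbc1d22a by 1.13, and Tbc1d1 rose by 1.07. Gdi2, a GDP dissociation inhibitor, fell by 1.16 ± 0.28 (adjusted p = 0.00102) and Rabac1 by 0.85, while Rabggtb, a subunit of the prenylating enzyme, rose by 0.43. The changes of Gdi2 and Rabac1 did not pass with CpG in the first experiment (0.68 and -0.13) or in labelled Atf3-deficient cells (-0.14 and -0.12).

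HDL given before a ligand raised Rab7b and lowered Rab31 in every such comparison, 1 in the first experiment and 4 in the second. In the first experiment 1 Rab gene rose and 2 fell of 41, where 9.28% of all genes passed (4.66% higher and 4.62% lower). In the second, 7 rose and 3 fell of 43 for HDL with CpG against CpG in wild-type cells (21.4% of all genes, 9.39% higher and 12% lower) and 4 rose and 5 fell in labelled Atf3-deficient cells (19.6%, 10.8% higher and 8.81% lower). For HDL with P3C against P3C, 3 rose and 2 fell in wild-type cells (18.6%, 9.57% higher and 9.07% lower), and 6 rose and 1 fell in labelled Atf3-deficient cells (18.5%, 9.22% higher and 9.3% lower). Under median scaling 2 rose and 2 fell in the first experiment, and 2 rose and 0 fell for HDL with CpG in each genotype and for HDL with P3C in labelled Atf3-deficient cells. The 3 genes of the first experiment, Rab7b, Rab31 and Rab3d, passed in the same direction in wild-type cells of the second, as did 81.5% of all genes that passed in the first, and the 2 experiments share no array. Each of these comparisons shares its ligand arrays with the ligand against control comparison above, so opposite signs in the 2 are not independent.

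**Figure D2:**
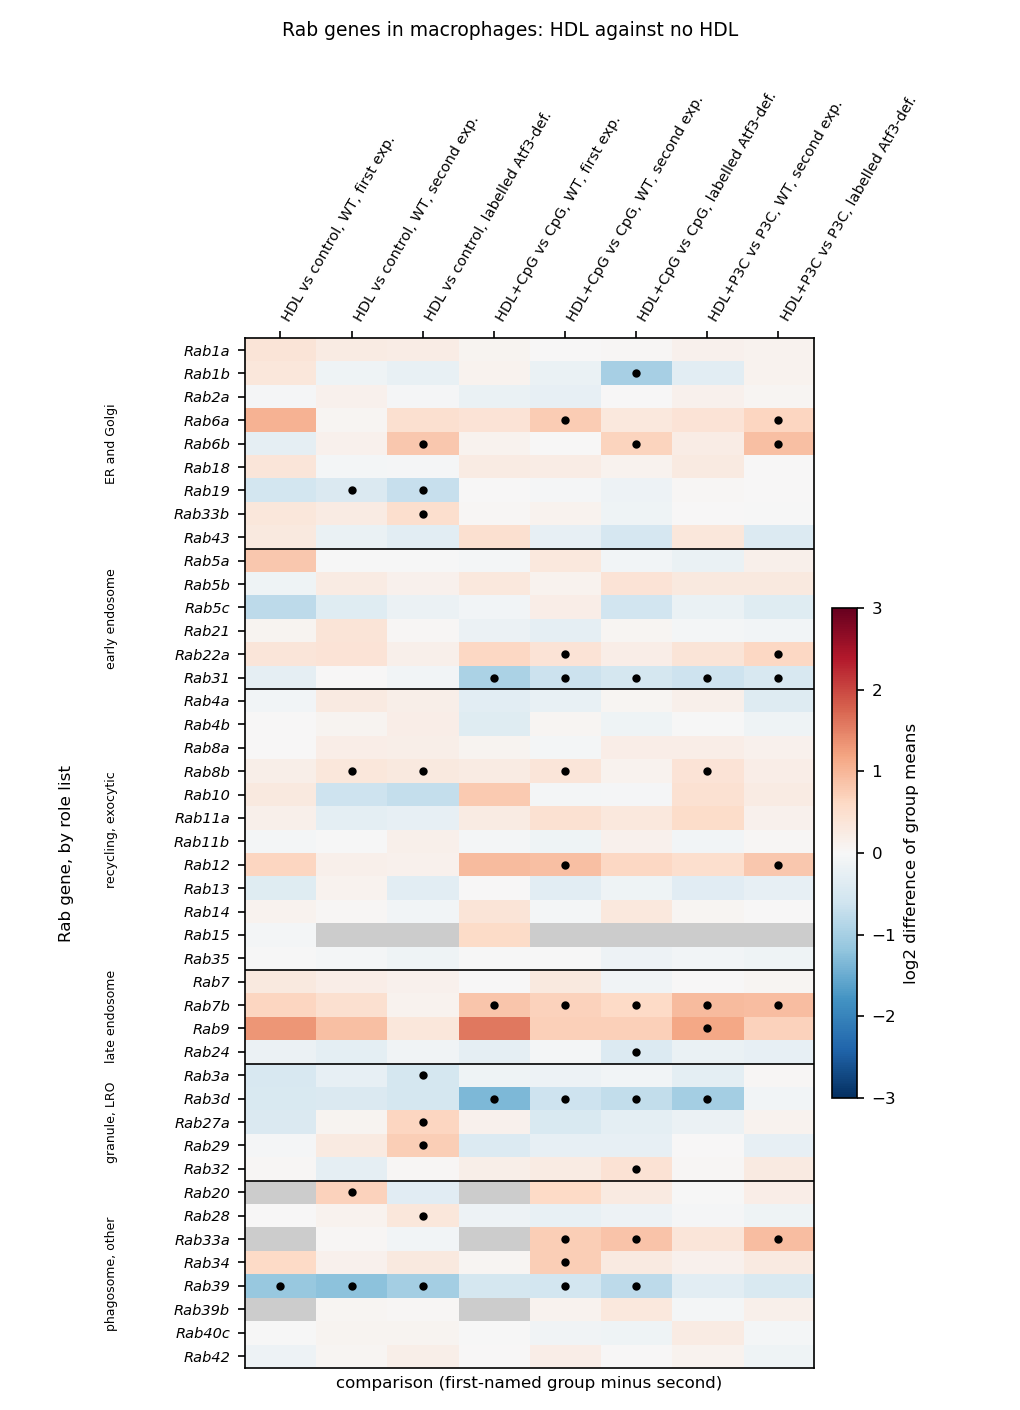
Log2 difference of group means (colour) for the same Rab genes in 8 comparisons of cells with HDL against cells without, HDL alone in the left 3 columns and HDL before a ligand in the right 5. Black dots mark an adjusted p below 0.05 and grey cells genes not kept. Rab39 carries a dot in all 3 columns of HDL alone, and Rab7b (red) and Rab31 (blue) carry a dot in all 5 columns of HDL before a ligand.

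Rab7b read 9.83, 10.17 and 10.30 with HDL and CpG in the first experiment, above its 9.15 to 9.47 with CpG alone. Wild-type arrays of the second experiment read 10.62, 10.43 and 10.29 with HDL and CpG, and 10.64, 10.76 and 10.70 with HDL and P3C. Both sets lay above the arrays of the ligand alone and below those of control cells. Rab7b was higher by 0.84 ± 0.19 (adjusted p = 0.0164) in the first experiment, and by 0.69 ± 0.18 (0.00476) with CpG and 0.95 ± 0.18 (0.000183) with P3C in wild-type cells. In labelled Atf3-deficient cells it was higher by 0.59 ± 0.18 (0.0179) with CpG, where the arrays overlapped (10.05, 10.20 and 9.65 against 8.94, 9.76 and 9.44), and by 0.92 ± 0.18 (0.000286) with P3C. On the chip that held both groups in the first experiment the difference was 0.76. The call was lost on leaving out any one of 4 of the 6 arrays in the first experiment, and any one of 3 of the 6 with CpG in labelled Atf3-deficient cells. With HDL alone Rab7b differed by 0.65 in the first experiment, by 0.47 in wild-type and by 0.11 in labelled Atf3-deficient cells of the second, without passing. Its other probe did pass with HDL alone in the second experiment, at 0.57 (adjusted p = 0.000587) in wild-type and 0.52 (0.00113) in labelled Atf3-deficient cells.

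Rab31, which carries cargo between the trans-Golgi network and endosomes and is found on phagosomes, read 11.45, 11.24 and 10.89 with HDL and CpG, against 12.19, 12.17 and 12.05 with CpG in the first experiment. In wild-type cells of the second it read 12.35, 12.28 and 12.02 with HDL and CpG against 12.91, 12.93 and 12.75 with CpG, and 12.01, 11.99 and 11.85 with HDL and P3C against 12.59, 12.65 and 12.45 with P3C. No array with HDL reached an array without it in any of the 5 comparisons. Rab31 fell by 0.94 ± 0.18 (adjusted p = 0.00587), by 0.65 ± 0.11 (7.04e-05) and by 0.62 ± 0.11 (0.000138). Cells labelled Atf3-deficient showed falls of 0.53 ± 0.11 (0.000885) with CpG and 0.49 ± 0.11 (0.00198) with P3C. Under median scaling the fall of the first experiment passed (0.0342) and none of the other 4 did (adjusted p between 0.127 and 0.272). With CpG against control it had risen in the second experiment, by 0.32 ± 0.11 in wild-type and 0.59 ± 0.11 in labelled Atf3-deficient cells.

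Rab3d, a Rab of secretory granules, read 8.55, 8.72 and 8.29 with HDL and CpG, against 10.08, 9.98 and 9.54 with CpG in the first experiment, a fall of 1.35 ± 0.19 (adjusted p = 0.000706). Wild-type arrays of the second experiment read 9.41, 9.66 and 9.64 with HDL and CpG, against 9.56, 10.53 and 10.50 with CpG. These groups overlapped through 1 CpG array, and the fall of 0.63 ± 0.22 (0.0358) was lost on leaving out any one of 5 of the 6 arrays. With P3C the same gene read 9.81, 9.44 and 9.38 with HDL, against 10.93, 10.58 and 10.13 without it, and fell by 1.01 ± 0.22 (0.00095). In labelled Atf3-deficient cells it fell by 0.73 ± 0.22 with CpG (0.0146, but 0.0755 with chip in the model) and differed by -0.09 with P3C.

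**Figure D3:**
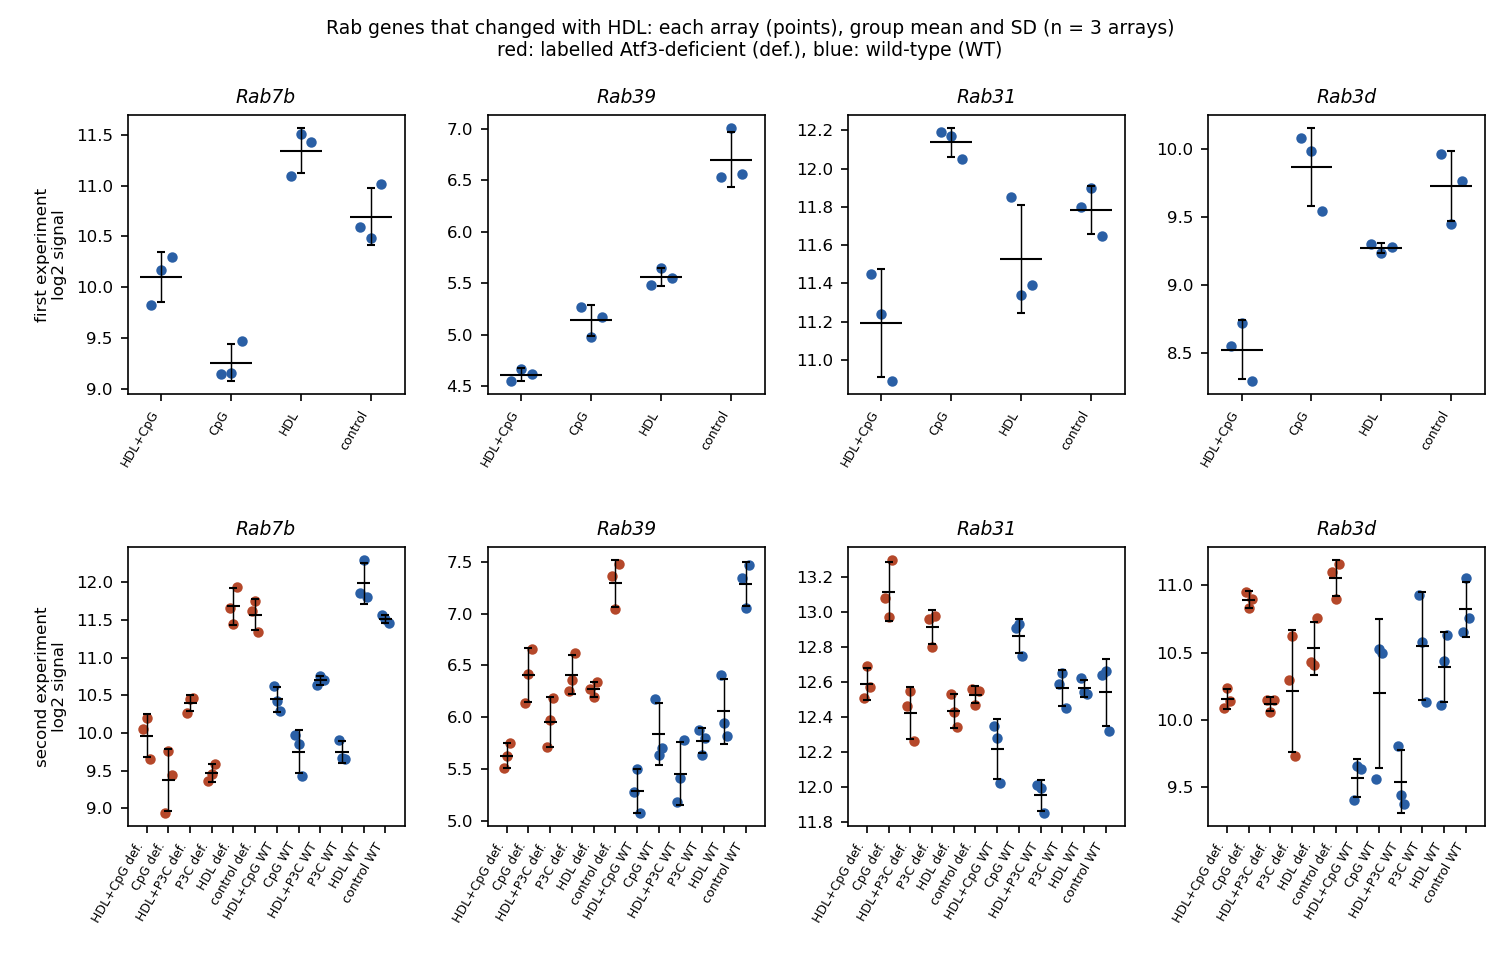
Log2 signal of Rab7b, Rab39, Rab31 and Rab3d on every array (points) of the first experiment (upper row) and the second (lower row), with the mean and SD of 3 arrays a group, labelled Atf3-deficient in red and wild-type in blue. The mean of Rab7b with HDL and a ligand lies between those of the ligand alone and control, with arrays at 9.83 to 10.30 in the first experiment. In labelled Atf3-deficient cells the arrays with HDL and CpG overlap those with CpG. Rab31 with HDL and CpG (10.89 to 11.45 in the first experiment) lies below CpG alone (12.05 to 12.19).

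Rab33a, a close relative of the Golgi and autophagy Rab33b, read 5.05, 5.50 and 5.25 with HDL and CpG, against 4.46, 4.54 and 4.63 with CpG in wild-type cells. In labelled Atf3-deficient cells it read 5.18, 5.16 and 5.64 with HDL and CpG against 4.45, 4.56 and 4.40 with CpG, and 5.78, 5.81 and 5.57 with HDL and P3C against 4.42, 4.76 and 5.19 with P3C. The groups did not overlap, yet the gene was near the limit of detection. It was detected on 1 of 3 arrays with HDL and CpG in each genotype, on all 3 with HDL and P3C in labelled Atf3-deficient cells, and on none of the other arrays. It was thus kept only because it was high in groups given HDL and a ligand, and no test of it is given. It is counted above among the genes that rose with HDL and CpG in each genotype and with HDL and P3C in labelled Atf3-deficient cells. Rab8b, lowered by the ligands, was higher with HDL and CpG by 0.36 ± 0.10 (0.00569) and with HDL and P3C by 0.42 ± 0.10 (0.0018) in wild-type cells. Rab12 was higher by 0.90 ± 0.25 with HDL and CpG in wild-type cells (0.00772, but 0.0514 with chip in the model) and by 0.81 ± 0.25 with HDL and P3C in labelled Atf3-deficient cells (0.0196).

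Calls in a single comparison included Rab9, which returns receptors from late endosomes to the Golgi and read 7.96, 8.64 and 8.62 with HDL and P3C against 7.29, 7.27 and 7.20 with P3C in wild-type cells (1.15 ± 0.34, adjusted p = 0.016), a call lost without the second or the third array of HDL and P3C. Rab34, which positions lysosomes, read 8.01, 8.02 and 8.00 with HDL and CpG against 6.35, 7.67 and 7.78 with CpG in wild-type cells (0.74 ± 0.21, 0.00897). The first CpG array, the macrophage array with the fewest detected probes, stood apart, and the call was lost without it. Rab1b, which acts between the endoplasmic reticulum and Golgi, read 6.77, 6.58 and 6.55 with HDL and CpG against 8.00, 7.47 and 7.39 with CpG in labelled Atf3-deficient cells (-0.99 ± 0.25, 0.00389). The other 2 Rab1b probes differed there by 0.11 and -0.49 without passing.

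With HDL alone 1 to 9 Rab genes passed, and Rab39 fell in each of the 3 comparisons. In the first experiment Rab39 was the 1 gene of 41 to pass, where 8.08% of all genes did (3.23% higher and 4.85% lower). In the second experiment 2 rose and 2 fell in wild-type cells (15.3% of all genes, 8.37% higher and 6.88% lower), and 6 rose and 3 fell in labelled Atf3-deficient cells (23.2%, 13.4% higher and 9.89% lower). Under median scaling 0 rose and 1 fell in wild-type cells, and 1 rose and 2 fell in labelled Atf3-deficient cells. The deposited matrix gave 4 and 1 in wild-type cells. Rab39 read 5.48, 5.65 and 5.55 with HDL, against 6.53, 7.01 and 6.56 in control cells of the first experiment. In the second it read 6.27, 6.20 and 6.34 with HDL against 7.36, 7.04 and 7.48 in labelled Atf3-deficient control cells, and 6.41, 5.94 and 5.82 with HDL against 7.34, 7.05 and 7.47 in wild-type control cells. Every HDL array was below every control array. The fall was 1.14 ± 0.16 (adjusted p = 0.000734) in the first experiment, 1.03 ± 0.18 (6.54e-05) in labelled Atf3-deficient and 1.23 ± 0.18 (7.6e-06) in wild-type cells. With HDL and CpG against CpG it fell further, by 0.78 ± 0.18 (0.00202) in labelled Atf3-deficient and by 0.55 ± 0.18 (0.0267) in wild-type cells, the second of these lost on leaving out any one of 3 arrays. The interaction of HDL with CpG in the first experiment passed for no Rab gene by limma (4 at an unadjusted p below 0.05), where 1.13% of all genes passed.

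Rab8b rose with HDL alone, at 13.42, 13.55 and 13.25 against 13.10, 13.11 and 13.15 in labelled Atf3-deficient cells and at 13.38, 13.39 and 13.48 against 13.08, 13.02 and 13.16 in wild-type cells. These rises of 0.29 ± 0.10 (adjusted p = 0.0275) and 0.33 ± 0.10 (0.0145) did not hold with chip in the model (0.235 and 0.14). Rab19 fell by 0.70 ± 0.13 (0.000109) in labelled Atf3-deficient cells and by 0.44 ± 0.13 (0.0159) in wild-type cells, where the groups overlapped and leaving out single arrays lost the call. Rab29 in labelled Atf3-deficient cells read 10.99, 10.90 and 10.92 with HDL against 10.22, 10.01 and 10.39 in control cells, a rise of 0.73 ± 0.15 (0.00036). Rab6b rose there by 0.82 ± 0.24 (0.0101, but 0.105 with chip in the model). Rab20, a Rab of maturing phagosomes, was detected on 2 of 3 HDL arrays and on no control array of wild-type cells, and was at least 1.07-fold higher (0.0437).

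The endothelial markers Pecam1 and Vwf moved with HDL. Their summed signal was 565 to 685 with HDL against 272 to 306 in wild-type control cells, 413 to 439 against 136 to 174 in labelled Atf3-deficient cells, and 156 to 221 against 76.1 to 107 in the first experiment. It was also higher with HDL and a ligand than with the ligand alone in all 5 comparisons. The 2 smooth muscle markers detected in the second experiment were at 1390 to 1750 with HDL against 625 to 939 in labelled Atf3-deficient control cells, and at 477 to 583 against 342 to 397 in wild-type control cells, while Myh11, Tagln, Cnn1 and Des were undetected. Macrophage markers were at 55200 to 56400 with HDL against 59400 to 64700 in labelled Atf3-deficient cells and at 54500 to 55900 against 63400 to 66300 in wild-type cells. In the first experiment both ranges overlapped those of control cells. Smooth muscle markers were at 5920 to 6730 with HDL against 4380 to 7280, and macrophage markers at 33800 to 38000 against 35000 to 42500. The part of these markers in the Rab results was not tested.

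Between the genotype labels Rab19 differed most. In control cells 1 Rab gene was higher and 3 lower in labelled Atf3-deficient than in wild-type cells (13.3% of all genes passed, 6.46% higher and 6.81% lower). With CpG 8 were higher and 4 lower (22.7%, 8.89% higher and 13.8% lower), and with P3C 5 and 2 (12.9%, 6.31% and 6.61%). With HDL it was 3 and 1 (10.5%, 5.1% and 5.41%), with HDL and CpG 1 and 1 (12.1%, 5.88% and 6.24%), and with HDL and P3C 2 and 0 (15%, 6.9% and 8.12%). Under median scaling, which put the median of all genes at -0.34 to -0.15, the counts higher and lower were 1 and 1 in control cells, 0 and 2 with CpG, 0 and 1 with P3C, 1 and 0 with HDL, 0 and 0 with HDL and CpG, and 0 and 3 with HDL and P3C. The deposited matrix gave 6 and 0 with P3C. The P3C count of 7 became 2 to 4 without any one of the 6 arrays, and the CpG count of 12 became 6 without the first or the third labelled Atf3-deficient CpG array and 0 when only the groups compared were fitted. These counts include Rab19 with CpG and Rab3a with P3C, which no array of either label detected, and no difference is given for them. Rab19 read 6.76, 6.54 and 6.99 in labelled Atf3-deficient control cells, against 5.95, 5.49 and 5.81 in wild-type control cells, a difference of 1.02 ± 0.13 (adjusted p = 5.86e-07). The groups did not overlap, and the difference was 0.70 and 1.51 within the 2 chips that held both. With HDL it read 6.11, 6.11 and 5.98 against 5.18, 5.52 and 5.22, a difference of 0.76 ± 0.13 (9.28e-05). With either ligand it was undetected in both.

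The falls of Rab19 with the ligands differed between the labels by -0.67 ± 0.18 (adjusted p = 0.0383) for CpG and by -1.06 ± 0.18 (0.000602) for P3C, labelled Atf3-deficient minus wild-type. It was the 1 Rab gene to pass in either test, where 3.12% of all genes (0.966% higher and 2.15% lower) and 2.17% (0.814% and 1.36%) passed. For the HDL effect no Rab gene passed by limma (3 at an unadjusted p below 0.05), where 1.27% of all genes did. The CpG value did not hold with chip in the model (0.0718) and the P3C value did (0.00401). Since Rab19 was below detection with either ligand in both labels, both values rest on the difference between the control groups.

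**Figure D4:**
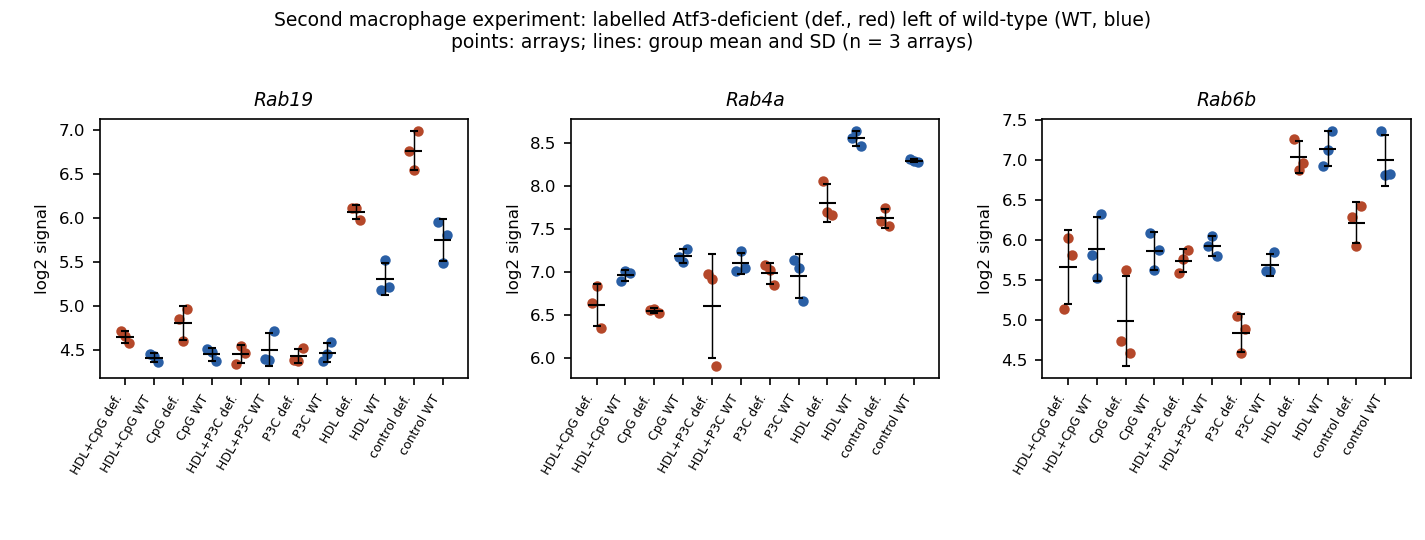
Log2 signal of Rab19, Rab4a and Rab6b on every array (points) of the second macrophage experiment, with the mean and SD of 3 arrays a group, labelled Atf3-deficient (red) left of wild-type (blue) for each treatment. Rab19 in control cells is at 6.54 to 6.99 in labelled Atf3-deficient cells and 5.49 to 5.95 in wild-type cells, and is undetected with every ligand. Rab4a in control cells is at 7.54 to 7.75 in labelled Atf3-deficient cells and 8.28 to 8.32 in wild-type cells.

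Rab4a passed as lower in labelled Atf3-deficient cells in 3 of the 6 comparisons of labels. It read 7.59, 7.75 and 7.54 in labelled Atf3-deficient control cells against 8.32, 8.30 and 8.28 in wild-type control cells (-0.67 ± 0.18, adjusted p = 0.00915), and 6.56, 6.57 and 6.52 against 7.17, 7.12 and 7.27 with CpG (-0.64 ± 0.18, 0.00996). With HDL it was lower by 0.75 ± 0.18 (0.00449, but 0.0971 with chip in the model). With P3C the labels overlapped, at 7.08, 7.02 and 6.85 in labelled Atf3-deficient and 7.14, 7.05 and 6.66 in wild-type cells. Rab4a did not pass there or with HDL and a ligand. Rab6b also passed as lower in 3 of the 6, at 6.29, 5.93 and 6.43 against 7.36, 6.81 and 6.82 in control cells (-0.78 ± 0.24, 0.0223). That call was lost without the second labelled Atf3-deficient or the first wild-type control array. With P3C Rab6b was undetected in labelled Atf3-deficient cells and at least 1.14-fold lower (0.0138), and with CpG at least 1.32-fold lower (0.00689) with overlapping arrays. With HDL the labels overlapped, at 7.26, 6.88 and 6.97 against 6.93, 7.13 and 7.37, and Rab6b did not pass.

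Rab33b, which acts in Golgi transport and autophagy, was lower by 0.47 ± 0.13 in control cells (0.0135) and by 0.51 ± 0.13 with HDL and CpG (0.00826). Rab31 was higher in labelled Atf3-deficient cells with P3C (0.35 ± 0.11, 0.0385), HDL and CpG (0.37 ± 0.11, 0.0252, but 0.163 with chip in the model) and HDL and P3C (0.47 ± 0.11, 0.00356). The first call was lost without any one of 4 of the 6 arrays (adjusted p between 0.0846 and 0.162), and the second without any one of 3 (between 0.0555 and 0.189). Of the other calls, those of Rab29 with P3C (0.54) and HDL (0.68), Rab27a with HDL (0.63), Rab39 with P3C (0.64) and Rab3d with CpG (0.69) were lost with chip in the model, at adjusted p between 0.101 and 0.247. So were those of Rab2a (-0.31), Rab5a (0.52), Rab5b (-0.55) and Rab8b (0.27) with CpG, between 0.0762 and 0.183, of which Rab2a and Rab5b were chosen after their values were seen. Another detected Rab5a probe did not share its direction there and did not pass. Rab43, which acts in transport from the endoplasmic reticulum, was higher with P3C (0.76 ± 0.21, 0.0143), a call lost without the first labelled Atf3-deficient (0.0871) or the third wild-type P3C array (0.0609). Fibroblast markers also moved with the label. Of 5 such genes 3 were detected (Col1a1, Col1a2 and Dcn), with a summed signal of 453 to 994 over the labelled Atf3-deficient groups and 146 to 316 over the wild-type groups. In control cells smooth muscle markers were at 625 to 939 against 342 to 397, endothelial markers at 136 to 174 against 272 to 306 and neutrophil markers at 69.5 to 80.9 against 148 to 195, labelled Atf3-deficient against wild-type. The part of these markers in the differences was not tested.

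In the injured artery no Rab gene passed in any of the 4 comparisons by limma, and neither did any of the 9356 genes tested (0%). For HDL against PBS in wild-type arteries 12 of 41 Rab genes (29.3%) had an unadjusted p below 0.05, as did 23.1% of all genes. In labelled Atf3-deficient arteries 0 Rab genes did, beside 1.38% of all genes. For labelled Atf3-deficient against wild-type arteries 0 did under PBS (0.609% of all genes) and 1 under HDL (7.43%). In wild-type arteries Rab1b read 4.33, 4.99 and 4.37 with HDL, against 5.06, 5.59 and 5.61 with PBS, with no overlap. It was undetected on every HDL array and detected on every PBS array, and no fold is given because the PBS mean did not exceed the mean of the lowest detected signals of the HDL arrays (adjusted p = 0.192). Rab34 read 5.83, 7.90 and 4.29 with HDL against 8.37, 7.72 and 8.65 with PBS (-2.24 ± 0.74, adjusted p = 0.192), and Rab4a 4.29, 5.31 and 4.34 against 6.04, 5.23 and 5.61 (-0.98 ± 0.35, adjusted p = 0.192). In both genes the second HDL array lay among the PBS arrays. Rab7b read 9.23, 7.49 and 9.41 with HDL against 6.75, 8.06 and 6.82 with PBS, again with the second HDL array apart (1.50 ± 0.62, adjusted p = 0.194).

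**Figure D5:**
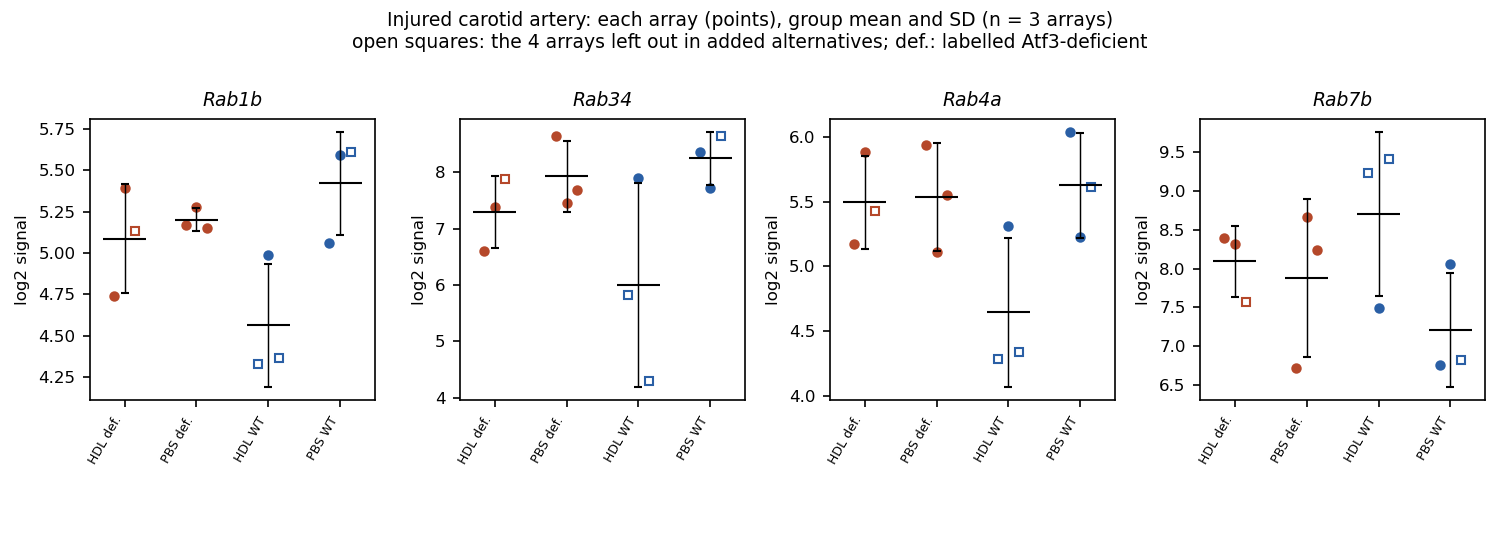
Log2 signal of Rab1b, Rab34, Rab4a and Rab7b on every array (points) of the injured artery, with the mean and SD of 3 arrays a group, labelled Atf3-deficient in red and wild-type in blue, HDL left of PBS. Open squares are the 2 arrays whose Erdr1 signal goes against the label and the 2 with the fewest detected probes, which are the first and the third wild-type HDL arrays. For all 4 genes the second wild-type HDL array is nearer the PBS arrays than the first and the third are.

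In labelled Atf3-deficient arteries the smallest p-values for HDL against PBS were those of Rab43, Rab44 and Rab15, with differences of 0.42, 0.76 and -0.79 and an adjusted p of 1 each. Between labels under PBS they were those of Rab5a (-0.27), Rab6a (-0.43) and Rab5c (0.28), also with an adjusted p of 1. Under HDL they were those of Rab4a (0.85 ± 0.35), Rab1b, undetected in wild-type arteries with HDL, and Rab3d (-0.75 ± 0.38), with an adjusted p of 0.603 each. The first and the third wild-type HDL arrays had the fewest detected probes, and without these 2 arrays, or without the 2 arrays whose Erdr1 signal went against the label, no Rab gene passed in any artery comparison. Without the 2 arrays of fewest probes, which leaves 1 wild-type HDL array that is assumed to vary like the other groups, the wild-type difference of Rab34 was -0.35 and that of Rab4a -0.31. With median scaling 19 Rab genes and in the deposited normalised values 22 passed for HDL against PBS in wild-type arteries, all lower, as 44.4% and 46% of all genes passed in either direction, and the median of all genes was itself at -1.08 and -0.63. Without the second wild-type HDL array 9 Rab genes passed for HDL against PBS in wild-type arteries (25.2% of all genes) and 3 for the labels under HDL (8.95% of all genes).

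Cell-type markers differed between the wild-type artery groups too. Summed over each list, macrophage markers were at 8780 to 18500 with HDL against 3820 to 9240 with PBS, smooth muscle markers at 4380 to 35700 against 21600 to 46700, and fibroblast markers at 546 to 6190 against 4730 to 10500. In whole arteries fewer cells of a type and less RNA per cell cannot be told apart. The part of these cells in the Rab values was not tested.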

How the data were processed

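Expression was measured on Illumina mouse BeadChips in 48 macrophage and 12 artery samples. Per the file headers, the deposited tables hold un-normalised probe intensity and detection p-values. The deposited matrix holds the authors' processed values, as normalised intensity for macrophages and log2 values for the artery. Partek is named, without a version, in the submitters' processing notes, and the probe-level software is not given in the sources used here.

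Intensities were corrected and normalised with neqc of limma 3.58.1 in R 4.3.3 (normexp from the detection p-values, offset 16, quantile). Each gene was represented by its probe of highest mean signal, detected at p below 0.01 on at least 3 arrays of a table. 1 linear model per experiment over all its groups, with eBayes, gave log2 differences with SE (8, 24 and 8 residual degrees of freedom) and p-values adjusted by Benjamini-Hochberg over 8946, 9213 and 9356 genes, with calls at 0.05. Chip correlations were 0.41, 0.0962 and -0.0364. No 2 arrays held identical values. Alternatives changed chip terms, scaling, background, filter, probe choice, groups fitted and arrays left out, and leaving out pairs of artery arrays was chosen after seeing the data. The model was tested on simulated data.

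Rab genes were named by largest absolute change among calls (10 over ligand comparisons, each at its largest change, and 4 in each comparison of HDL, of genotype labels or of responses), by the 3 smallest p-values in each artery comparison, or as close relatives of these. Of each regulator list, the 4 largest calls with CpG in second-experiment wild-type cells were named. Members and lists were chosen with earlier results of these data known. Python 3.11.15 and matplotlib 3.10.9 drew the figures. Promoters are from RefSeq (GRCm38.p6).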

Additional observations from a re-analysis of the deposited data

Results flagged for a closer look

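The fall of Rab19 with a ligand differed between the genotype labels by -0.67 ± 0.18 for CpG (limma, adjusted p = 0.0383) and by -1.06 ± 0.18 for P3C (adjusted p = 0.000602), labelled Atf3-deficient minus wild-type, and both results are given because the difference between the labels was itself tested and passed. Rab19 was undetected on every array with a ligand alone in both labels. Both values therefore rest on the difference between the control groups, and the sizes of the falls themselves were not measured. With chip in the model the adjusted p was 0.0718 for CpG and 0.00401 for P3C, and both missed the threshold under median scaling. The cause was not tested.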

How the results depend on the processing

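Of 260 counts of Rab calls under other settings than leaving out an array, 210 were within 1.5 times the reported count. Of 2288 values of named calls, 1944 kept their call or lack of one, 329 lost it, 11 gained it and 4 changed sign. The signs that changed were those of Rab3d (-0.48 under median scaling, -0.50 in the deposited matrix) and Rab5c (-0.76 in both), for HDL against PBS in wild-type arteries. Where a count changed the cause was not tested.

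Median scaling gave 13 and 15 calls for CpG and 12 and 13 for P3C in labelled Atf3-deficient and wild-type cells, 3 and 1 for HDL, 2 and 2 for HDL with CpG, 2 and 3 for HDL with P3C, and 19 for HDL in wild-type arteries. Between labels it gave 2 in control cells, 2 with CpG, 1 with P3C, 1 with HDL and 0 with HDL and CpG, and 0 for the differences in the CpG and P3C effects. Fitting only the groups compared gave 12 for CpG in wild-type cells, 5 for HDL with CpG in the first experiment, 4 and 2 for it in labelled Atf3-deficient and wild-type cells, 8 for HDL with P3C in wild-type cells, 0 with CpG and 4 with P3C between labels, and 0 and 1 for the differences in the CpG and HDL effects. Chip as a fixed effect gave 3 for HDL and 5 for HDL with CpG in the first experiment, 5 for HDL in labelled Atf3-deficient cells, 7 with CpG, 5 with HDL and P3C, 1 with HDL and 4 with P3C between labels, and 0 for the difference in the CpG effect. Chip as a random block gave 2 for HDL and 5 for HDL with CpG in the first experiment, and 4 between labels with HDL and CpG and with HDL and P3C. The deposited matrix gave 22 for HDL in wild-type arteries. The count for the difference in the CpG effect was 2 in the matrix, without normexp, without a detection filter, or with detection on all arrays of a group, and that for the P3C effect 2 in the matrix or without normexp. HDL in the first experiment had 2 in the matrix, without normexp, without a filter or with the mean of detected probes.

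Leaving out 1 array gave 9 to 20 calls for CpG in the first experiment, 20 to 26 and 20 to 24 for CpG and 19 to 24 and 18 to 20 for P3C in labelled Atf3-deficient and wild-type cells, and 0 to 1 for CpG against P3C. HDL gave 1 to 3 in the first experiment (3 without the third control array), 4 to 8 in labelled Atf3-deficient cells (4 without the second control array) and 2 to 4 in wild-type cells. HDL with CpG gave 2 to 4 in the first experiment, 6 to 9 and 7 to 10 in the second, and HDL with P3C 5 to 7 and 4 to 6. Between labels the counts were 2 to 4 in control cells, 6 to 12 with CpG (6 without the first or the third labelled Atf3-deficient CpG array), 2 to 4 with P3C, 3 to 4 with HDL, 0 to 2 with HDL and CpG and 2 to 5 with HDL and P3C. They were 0 to 3 for the difference in the CpG effect, 1 for the P3C effect, and 0 for the HDL effect and the interaction of HDL with CpG. In arteries they were 0 to 9 for HDL in wild-type, 0 for HDL in labelled Atf3-deficient, 0 between labels with PBS and 0 to 3 with HDL.

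No paired analysis was possible because the array numbers only follow the order of deposit and pair no arrays across groups. Signals near background leave a bound at most for Rab19, Rab20, Rab3a, Rab6b, Rab27a and, in the artery, Rab1b where 1 of the groups compared was undetected, and no difference is given between groups that were both undetected.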

Other observations

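Regulators of the Rab cycle were counted with HDL as well, and no difference of their shares from those of all genes was tested. With HDL alone 13.4% of all genes were higher and 9.89% lower in labelled Atf3-deficient cells, 8.37% and 6.88% in wild-type cells, and 3.23% and 4.85% in the first experiment. Of 25 GAPs 5 rose and 3 fell in labelled Atf3-deficient cells and 6 rose and 2 fell in wild-type cells. Of 33 effectors 9 rose and 1 fell in each. Of 28 GEFs 5 rose and 4 fell in labelled Atf3-deficient and 3 rose and 2 fell in wild-type cells. In the first experiment 2 GAPs and 5 of 31 effectors rose and none fell. The GEFs of that experiment and the genes of the GDP dissociation and prenylation machinery are not given here, so these counts do not cover every list. The median log2 difference of effectors was 0.18 in labelled Atf3-deficient cells, where that of all genes was 0.02, and 0.24 in wild-type cells, where that of all genes was 0.

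With HDL before a ligand in the second experiment, 3 to 7 GAPs rose and at most 2 fell in each of the 4 comparisons, and 6 to 9 effectors rose and at most 2 fell, where 18.5% to 21.4% of all genes passed (9.22% to 10.8% higher and 8.81% to 12% lower). The GEFs, which moved in both directions with HDL alone, and the GDP dissociation and prenylation genes are not given for these comparisons. These lists were chosen with earlier results of these data known.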
